A study of Mus with 6 samples.

Results

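Translation initiation and elongation factors are the proteins that load a ribosome onto an mRNA, find its start codon and carry tRNAs through the ribosome while the protein is built. Initiation begins when eIF4E binds the cap of the mRNA, eIF4G bridges it to the eIF3-bound small ribosomal subunit, and eIF2 delivers the initiator tRNA; eEF1A and eEF2 then drive elongation. A resting T cell makes little protein, and on activation it raises its rate of translation, in part through signals that release eIF4E from its binding proteins and that control eIF2 and eEF2.

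The genes described here were those of the deposited table whose symbols begin with Eif1 to Eif6 or with Eef1 or Eef2, without the eIF2 alpha kinases (Eif2ak genes), and whose mean over the 6 libraries was at least 1 FPKM. Of 60 genes with such symbols 56 met this limit, among 8816 tested of 10995 listed. The values were taken as FPKM, a unit inferred from the methods and the values. FPKM correct read counts for the length of the transcript and the size of the library, so that levels of different genes can be set side by side. The rule itself used symbols and mean level, although earlier results of these data were known when it was written.

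The cells were naive CD4+ T cells from the spleen of wild-type mice. All were activated for 3 days with IL-2 (100 U/mL), anti-CD3 at 5 μg/mL and anti-CD28 at 2 μg/mL, antibodies that trigger the T cell receptor and its costimulator. Along with this activation, which both groups shared, 3 libraries received an antibody that blocks the growth factor VEGF-B (anti–VEGF-B, 1 μg/mL) and 3 received normal IgG (1 μg/mL). The labels do not say whether the libraries of a group came from separate mice or cultures, so the p-values measure the spread between these samples, which may be technical.

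The FPKM of a library summed to between 262045 and 276527 with anti–VEGF-B and between 260058 and 276622 with IgG, and read depth is unknown. The log2(FPKM + 1) of the 8816 genes was tested with limma and adjusted after Benjamini and Hochberg, and a gene is said to have risen or fallen where its adjusted p was under 0.05. Fold changes on this scale understate the change of genes with low FPKM. Percentages by which the level of a single gene rose or fell are those of the mean FPKM, which is another measure. The median log2 fold change over all tested genes was -0.15, a value that moved with the scaling, since quantile normalization gave 0.01, centring each library on its median 0.05 and cyclic loess 0.00. Of 8 CD4 T cell markers 7 were listed, with a summed level of 474 to 493 FPKM with anti–VEGF-B and 448 to 488 FPKM with IgG, and Cd3e alone among them fell. The 6 activated T cell markers summed to 748 to 838 FPKM with anti–VEGF-B and to 947 to 1159 FPKM with IgG, and 5 of them fell (Il2ra, Mki67, Ctla4, Icos and Tnfrsf9). Markers of other cells were low: of 6 B cell markers Cd79b alone was listed, at 0.67 to 1.34 FPKM, none of 4 neutrophil markers was listed, and CD8 T cell markers summed to 2.29 to 4.69 FPKM. Macrophage markers summed to 11.4 to 12.9 FPKM with anti–VEGF-B and to 12.8 to 28.8 FPKM with IgG, the highest value being that of IgG 3. In bulk RNA fewer cells of a type cannot be told apart from less RNA per cell, and the part of these marker differences in the results below was not tested.

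With anti–VEGF-B, 10 of the 56 translation factor genes fell, 5 rose and 41 did not pass the test. The share that fell was 17.9%, against 23.8% of all tested genes, and the share that rose was 8.93%, against 4.87%. In either direction 28.7% of all tested genes passed. The genes that fell were Eif4g3, Eif4a3, Eif4ebp2, Eif4enif1, Eef1e1, Eif4g1, Eef1akmt2, Eif4e3, Eif1a and Eif2d, and those that rose were Eef2k, Eif5, Eif3m, Eif3e and Eif1ax. In each of these 15 genes the groups of 3 values did not overlap. Over all 56 genes the groups lay apart in 16 with anti–VEGF-B lower and in 16 with anti–VEGF-B higher, which is 28.6% each way, against 38.5% and 10.5% of all tested genes. The median log2 fold change of the 56 genes was -0.01, which is 0.14 above that of all tested genes without further scaling. That difference shrank to 0.02 under quantile normalization and to -0.01 under cyclic loess.

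How many factors passed depended on the scaling. Quantile normalization gave 5 lower and 5 higher factors, cyclic loess 5 and 4, and median centring 2 and 16, with 10.4% lower and 9.98% higher, 10.6% and 9.66%, and 9.15% and 15.5% of all tested genes. Eif4g3 and Eif4a3 fell, and Eef2k, Eif5, Eif3m and Eif1ax rose, under each of these 3 scalings too. Median centring added Eif2b2, Eif2s2, Eif3f, Eif3g, Eif3i, Eif3j1, Eif3k, Eif4a1, Eif4e2, Eif4ebp1 and Eif4g2 to the higher factors. Leaving out 1 library also moved the counts. Without anti–VEGF-B 3, 2 factors fell and 2 rose, against 7.88% lower and 1.86% higher among all tested genes. Without IgG 2 the counts were 4 and 2, against 12.5% and 2.93%. Without anti–VEGF-B 1 they were 6 and 2 (15.5% and 3.54% of all genes), and without anti–VEGF-B 2 they were 6 and 4 (16.2% and 3.24%). Without IgG 1 they were 8 and 6 (23.5% and 4.49%), and without IgG 3 they were 6 and 3 (17.3% and 3.72%).

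Further settings were tried. With no filter on low values 7 factors fell and 5 rose, against 20.6% and 3.75% of all genes listed. A minimum mean of 5 FPKM left 50 factors in the test. Of these 6 fell and 5 rose, against 20.1% and 6.94% of all genes tested there. Eef1e1, Eef1akmt2 and Eif2d lay under that limit and were not tested, while Eif1a lost its call (limma adjusted p = 0.0509). A pseudocount of 0.1 gave 10 and 4, against 23.7% and 4.82%. With the replicate number as a block 11 fell and 7 rose, against 23.9% and 5.32%. The block added Eif3b and Eif5a to the lower factors and Eif3f, Eif4a1 and Eif4ebp1 to the higher, and lost Eif1a and Eif1ax. With no moderation of the variances limma called none lower and 1 higher, Eef2k, against 0.0681% of all genes in each direction, while at an unadjusted p under 0.05 that fit had 12 factors lower and 12 higher, against 28.5% and 7.89% of all genes. A rule of an unadjusted p under 0.05 and a log2 change beyond 0.5 either way was passed by 3 lower factors (Eif4g3, Eif4a3 and Eef1e1) and by none of the higher, against 11.3% and 1.4% of all genes.

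**Figure D1:**
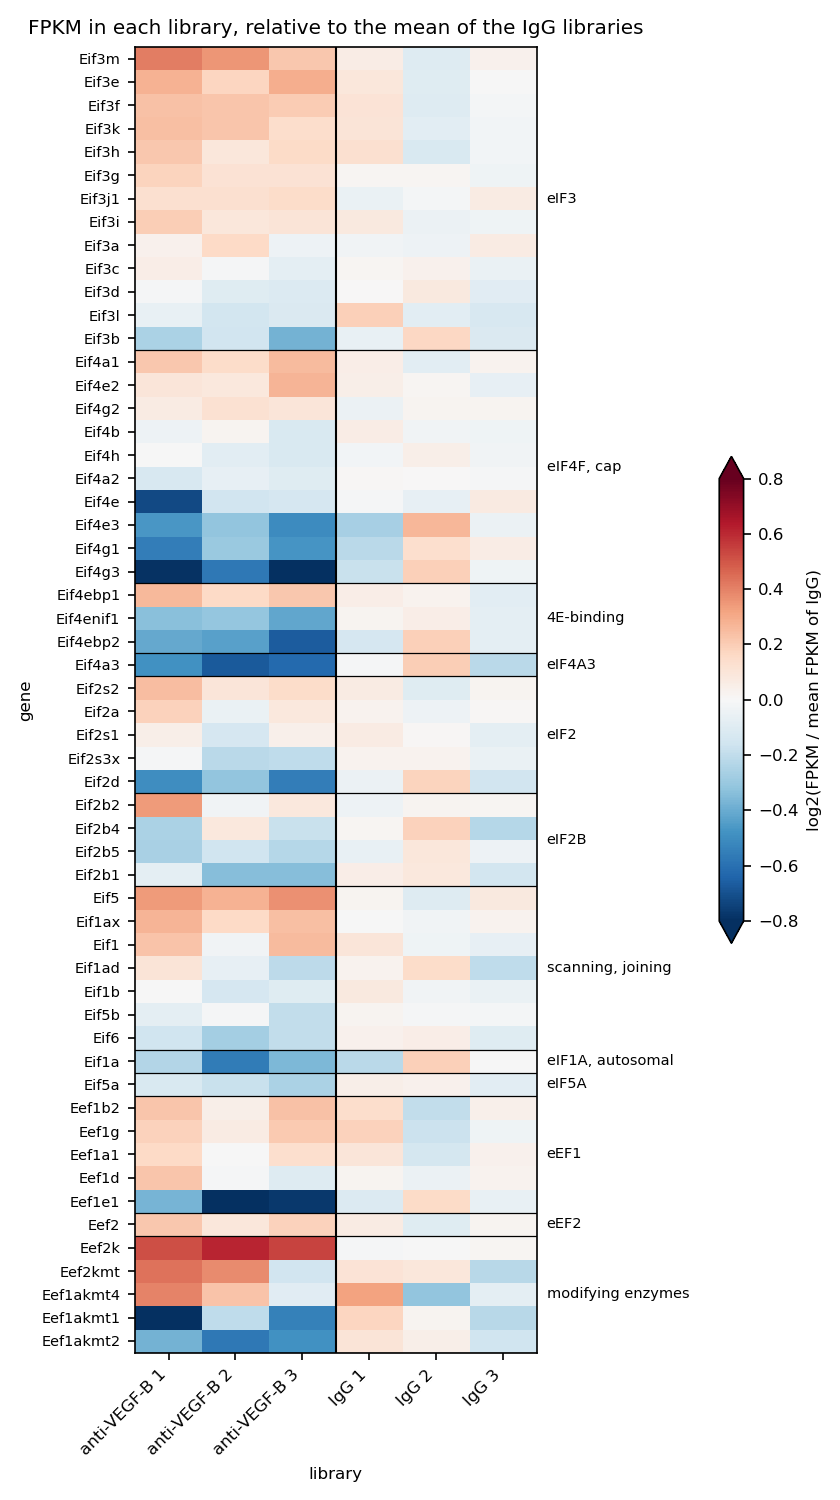
Each cell is the FPKM of 1 gene (vertical axis, grouped by role) in 1 library (horizontal axis), as log2 of its ratio to the mean of the IgG libraries, from blue (lower) to red (higher), with colours saturated at 0.8. Eef2k is red in all 3 anti–VEGF-B libraries, and Eif4g3, Eif4a3 and Eif4ebp2 are blue in all 3.

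The cap-binding complex eIF4F held Eif4g3, the factor with the largest fall in the fit without further scaling. Eif4a3, a helicase, fell more after quantile normalization (-0.48 against -0.40 on the log2 scale) and after cyclic loess (-0.48 against -0.40). It also fell more without IgG 3 (-0.66 against -0.62) and without anti–VEGF-B 1 (-0.61 against -0.58), where Eef1e1 fell most (-0.62). Eif4g3 encodes a less abundant form of the scaffold eIF4G, which joins the cap-binding protein to the ribosome. Eif4g3 stood at 3.90, 4.53 and 3.81 FPKM with anti–VEGF-B and at 5.95, 7.69 and 6.58 FPKM with IgG. Its mean FPKM fell by 39.4%, and the log2 fold change of FPKM + 1 was -0.60 (SE 0.11, limma adjusted p = 0.00907). Eif4g1, the main scaffold, stood at 19.4, 23.2 and 20.6 FPKM against 24.5, 31.3 and 29.7 FPKM, with every IgG library above every anti–VEGF-B library. Its log2 fold change was -0.42 (SE 0.11, limma adjusted p = 0.0225), and it no longer passed when any of anti–VEGF-B 1, anti–VEGF-B 3, IgG 2 or IgG 3 was left out, or after median centring (log2 fold change -0.21, limma adjusted p = 0.120). Eif4g2 encodes a related protein that lacks the part binding eIF4E. It stood at 72.6, 75.4 and 74.1 FPKM against 67.1, 70.5 and 70.3 FPKM, slightly higher in every anti–VEGF-B library (log2 fold change 0.09, limma adjusted p = 0.296).

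Eif4e encodes the cap-binding protein itself. It stood at 8.77, 13.0 and 13.2 FPKM with anti–VEGF-B and at 14.4, 13.8 and 15.2 FPKM with IgG. The 3 anti–VEGF-B libraries were the lower ones, but most of the difference lay in anti–VEGF-B 1, and the change did not pass the test (log2 fold change -0.31, SE 0.14, limma adjusted p = 0.122). Without anti–VEGF-B 1 its log2 fold change was -0.13. Eif4e3, a cap-binding relative, stood at 19.2, 21.3 and 18.7 FPKM against 22.1, 31.9 and 25.7 FPKM. It fell (log2 fold change -0.40, SE 0.12, limma adjusted p = 0.0423), with IgG 1 close to the anti–VEGF-B libraries and IgG 2 far above them. The call was lost in 10 of 14 alternative fits, among them all 3 scalings, no filter and each library left out except IgG 1. Its log2 fold change was -0.26 without IgG 2 and -0.19 after median centring. Its locus also holds Gm20696 on the same strand, listed at a mean of 0.806 FPKM, so its value is uncertain to that extent. Eif4e2, the relative known for repressing the translation of some mRNAs, stood at 17.9, 17.8 and 20.3 FPKM against 17.4, 17.0 and 16.1 FPKM (log2 fold change 0.14, limma adjusted p = 0.216).

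The RNA helicase eIF4A unwinds the start of the mRNA. Eif4a1, its main gene in dividing cells, stood at 287, 273 and 295 FPKM with anti–VEGF-B and at 256, 233 and 253 FPKM with IgG, without overlap, and missed the threshold (log2 fold change 0.20, SE 0.07, limma adjusted p = 0.0628). It passed after median centring (log2 fold change 0.41, limma adjusted p = 0.0289) and with the replicate block (0.0348). After quantile normalization (0.0949) and cyclic loess (0.104) it did not. Eif4a2, its close relative, stood at 58.4, 61.0 and 59.8 FPKM against 64.2, 64.0 and 63.6 FPKM (log2 fold change -0.10, limma adjusted p = 0.277). The ratio of Eif4a1 to Eif4a2 within a library was 4.90, 4.48 and 4.93 with anti–VEGF-B and 3.99, 3.64 and 3.97 with IgG. These ratios do not overlap, at an exact two-sided permutation p of 0.1, the smallest that 3 libraries against 3 can give. Eif4b and Eif4h, which assist the helicase, had log2 fold changes of -0.05 and -0.07 with overlapping groups.

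Eif4a3 encodes a helicase of the same family that sits in the exon junction complex on spliced mRNAs and is not counted here among the eIF4F genes. It stood at 19.0, 16.7 and 17.3 FPKM with anti–VEGF-B and at 26.5, 30.5 and 22.9 FPKM with IgG. All IgG libraries were above all anti–VEGF-B libraries, and the level fell by 33.5% (log2 fold change -0.56, SE 0.11, limma adjusted p = 0.00981). Like Eif4g3 it passed under 13 of 14 alternative fits, the exception being the fit without moderated variances.

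Of the proteins that bind eIF4E and hold it back from eIF4G, 2 of the 3 tested genes fell (66.7%, against 23.8% of all tested genes). Eif4ebp2 stood at 12.0, 11.7 and 10.0 FPKM with anti–VEGF-B and at 14.5, 18.1 and 15.0 FPKM with IgG. No anti–VEGF-B library reached an IgG library, and Eif4ebp2 fell by 29.2% (log2 fold change -0.46, SE 0.11, limma adjusted p = 0.0165), a call that was lost without anti–VEGF-B 3 (adjusted p = 0.0622) and after median centring (log2 fold change -0.26, adjusted p = 0.0537). Eif4enif1 encodes 4E-T, which carries eIF4E into the nucleus and into sites of mRNA storage. It stood at 12.1, 12.3 and 11.5 FPKM against 15.5, 15.9 and 14.5 FPKM and fell (log2 fold change -0.33, SE 0.08, limma adjusted p = 0.0181). Its call was lost without anti–VEGF-B 3 and under all 3 scalings, where the log2 fold change was -0.20, -0.13 and -0.21 after quantile normalization, median centring and cyclic loess. Its locus is overlapped over 42197 bases by Drg1 on the opposite strand.

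Eif4ebp1, the target of the kinase mTORC1 that releases eIF4E when phosphorylated, lay on the other side. It stood at 89.7, 83.6 and 87.2 FPKM with anti–VEGF-B and at 77.7, 76.6 and 70.6 FPKM with IgG. The groups did not overlap, and the change missed the threshold (log2 fold change 0.21, SE 0.07, limma adjusted p = 0.0538). It passed after median centring (log2 fold change 0.41, limma adjusted p = 0.0131) and, narrowly, with the replicate block (0.0498). After quantile normalization (0.103) and cyclic loess (0.0781) it did not. The ratio of Eif4ebp1 to Eif4ebp2 was 7.50, 7.14 and 8.72 with anti–VEGF-B and 5.38, 4.23 and 4.70 with IgG (exact two-sided permutation p = 0.1). A further set of ratios was picked after the values were seen and is given without a test. Eif4ebp1 to Eif4e stood at 10.2, 6.44 and 6.62 against 5.41, 5.56 and 4.65, with anti–VEGF-B 1 far above the rest. Eif4g2 to Eif4g1 stood at 3.74, 3.24 and 3.60 against 2.74, 2.25 and 2.37. Eif4e2 to Eif4e3 stood at 0.935, 0.834 and 1.08 against 0.787, 0.533 and 0.625, with IgG 1 close to anti–VEGF-B 2.

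**Figure D2:**
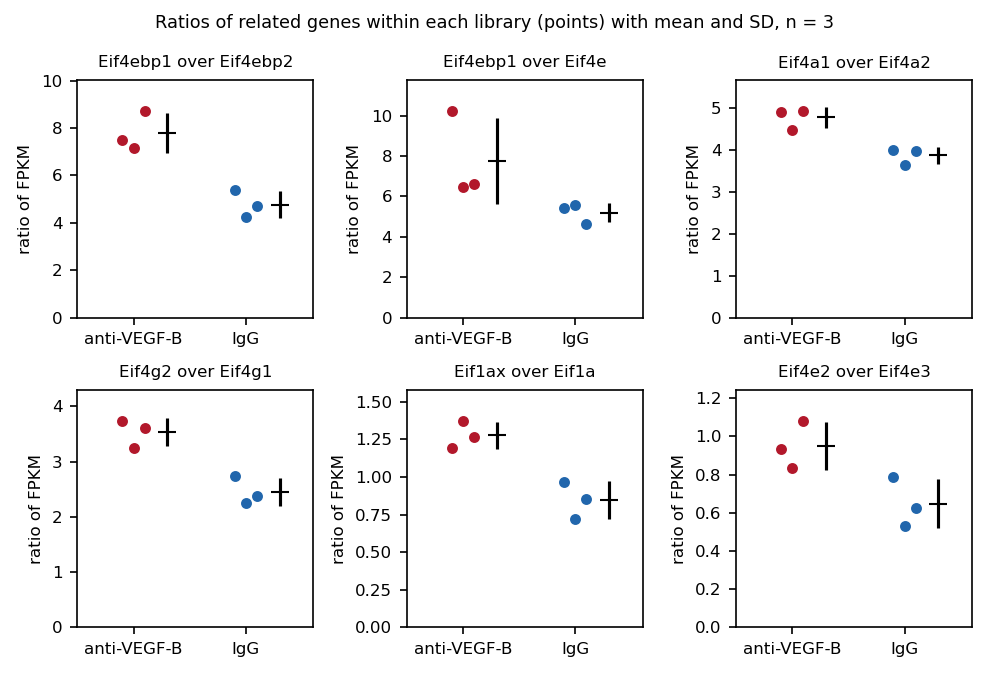
Ratio of the FPKM of 2 related genes in each library (points; vertical axis from 0, no unit), with the mean and SD of 3 libraries per group in black. In all 6 pairs the anti–VEGF-B points lie above the IgG points, and 4 of the 6 pairs were picked after the values were seen.

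The eIF2 complex brings the initiator tRNA to the small subunit, and its alpha subunit is the one phosphorylated in stress. Eif2s1, the alpha subunit, stood at 20.3, 17.9 and 20.2 FPKM with anti–VEGF-B and at 20.6, 19.8 and 18.6 FPKM with IgG. The groups overlapped, and the log2 fold change was -0.01 with a 95% interval of -0.20 to 0.17 (limma adjusted p = 0.907). Eif2s2, the beta subunit, stood at 104, 93.6 and 97.1 FPKM against 91.8, 81.9 and 89.1 FPKM (log2 fold change 0.16, limma adjusted p = 0.130). Eif2s3x, the X-linked gene of the gamma subunit, stood at 65.1, 56.5 and 57.1 FPKM against 66.8, 66.9 and 63.2 FPKM. Anti–VEGF-B 1 lay within the range of IgG, and the log2 fold change was -0.14 (limma adjusted p = 0.199), or 0.06 after median centring.

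Eif2d and Eif2a encode proteins that can deliver tRNA without the eIF2 complex. Eif2d stood at 2.30, 2.62 and 2.22 FPKM with anti–VEGF-B and at 3.15, 3.69 and 2.93 FPKM with IgG and fell (log2 fold change -0.33, SE 0.11, limma adjusted p = 0.0489), the weakest call of the 15, which was lost whichever library was left out and under all 3 scalings. After quantile normalization, median centring and cyclic loess the log2 fold change was -0.10, -0.13 and -0.10. Rassf5 lies over 11249 bases of its locus on the opposite strand. Eif2a had a log2 fold change of 0.07 with overlapping groups. The exchange factor eIF2B reloads eIF2 with GTP. None of its 4 tested subunit genes passed in limma without further scaling, where 23.8% of all tested genes fell and 4.87% rose. The log2 fold change was -0.23 for Eif2b1, 0.13 for Eif2b2, -0.09 for Eif2b4 and -0.20 for Eif2b5. After median centring Eif2b2 passed as higher (log2 fold change 0.33, limma adjusted p = 0.0447), as did 15.5% of all tested genes. Of these 4 genes only Eif2b5 had groups that did not overlap, at 11.6, 12.4 and 11.8 FPKM against 13.3, 14.8 and 13.5 FPKM. Eif2b5 alone among them had an unadjusted p under 0.05. Among all tested genes 38.5% lay apart with anti–VEGF-B lower, and 35.2% were lower at that unadjusted threshold.

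Among the 8 genes of factors that select the start codon and join the ribosomal subunits, Eif5 and Eif1ax rose and Eif1a fell. Eif5 encodes the protein that triggers GTP hydrolysis by eIF2 once the start codon is found. It stood at 95.1, 90.9 and 96.4 FPKM with anti–VEGF-B and at 76.2, 69.7 and 79.0 FPKM with IgG. Every anti–VEGF-B library was above every IgG library, and the level rose by 25.6% (log2 fold change 0.33, SE 0.07, limma adjusted p = 0.0146). Without anti–VEGF-B 3 its adjusted p was 0.0598. Eif1ax, the X-linked gene of eIF1A, which holds the scanning ribosome open, stood at 30.9, 28.5 and 30.1 FPKM against 25.5, 25.1 and 26.1 FPKM and rose (log2 fold change 0.22, SE 0.07, limma adjusted p = 0.0486). Its groups lay apart, but the call was lost in 9 of 14 alternative fits, among them each library left out.

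Eif1a, the autosomal gene of eIF1A, lay in the other direction from Eif1ax. It stood at 25.9, 20.8 and 23.8 FPKM with anti–VEGF-B and at 26.3, 34.9 and 30.5 FPKM with IgG, with anti–VEGF-B 1 and IgG 1 almost level, and fell (log2 fold change -0.36, SE 0.12, limma adjusted p = 0.0459). The call was lost in 11 of 14 alternative fits, among them all 3 scalings, both other filters, the replicate block and each library left out except anti–VEGF-B 1 and IgG 1. Its log2 fold change was -0.26 without IgG 2 and -0.16 after median centring. The ratio of Eif1ax to Eif1a, another pair picked after the values were seen, was 1.19, 1.37 and 1.27 with anti–VEGF-B and 0.970, 0.719 and 0.855 with IgG. The proteins encoded by these genes are nearly identical, and how the authors' counting shared reads between similar loci is not stated. Eif6, which keeps the large subunit apart until it is needed, stood at 17.7, 16.3 and 17.2 FPKM against 20.2, 20.5 and 18.5 FPKM, without overlap (log2 fold change -0.20, SE 0.08, limma adjusted p = 0.0897), and after median centring its log2 fold change was 0.00. Eif1, Eif1b, Eif1ad and Eif5b had overlapping groups and log2 fold changes between -0.09 and 0.15.

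The eIF3 complex is the scaffold that holds the small subunit during initiation. Of its 13 tested subunit genes 2 rose and none fell in limma, against 4.87% and 23.8% of all tested genes. At an unadjusted p under 0.05 the counts were 4 and 1, against 7.96% higher and 35.2% lower among all tested genes. Median centring gave 7 higher (15.5% of all tested genes), and quantile normalization and cyclic loess 1 each (9.98% and 9.66%). The median log2 fold change of the 13 was 0.13, and 0.11, 0.33 and 0.10 after quantile normalization, median centring and cyclic loess. Eif3m stood at 167, 160 and 146 FPKM with anti–VEGF-B and at 131, 117 and 128 FPKM with IgG. It rose by 25.7% (log2 fold change 0.33, SE 0.08, limma adjusted p = 0.0190), with no overlap, and missed the threshold without anti–VEGF-B 1 (0.0613) or IgG 2 (0.0557). Eif3e stood at 76.3, 70.7 and 76.8 FPKM against 67.0, 58.7 and 62.7 FPKM and rose (log2 fold change 0.25, SE 0.08, limma adjusted p = 0.0409). That call was lost after quantile normalization, after cyclic loess and when any of anti–VEGF-B 1, anti–VEGF-B 3, IgG 2 or IgG 3 was left out (adjusted p from 0.0919 to 0.134 in these 4 fits).

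Further subunits lay on the same side without passing in the fit without further scaling. Eif3f stood at 312, 310 and 306 FPKM with anti–VEGF-B and at 287, 247 and 263 FPKM with IgG (log2 fold change 0.22, limma adjusted p = 0.0566). Eif3k stood at 106, 105 and 99.2 FPKM against 96.7, 84.7 and 88.5 FPKM (log2 fold change 0.20, limma adjusted p = 0.0716). After median centring the limma adjusted p was 0.0281 for Eif3f and 0.0229 for Eif3k. Neither gene passed after quantile normalization or cyclic loess. In both, no IgG library reached the lowest anti–VEGF-B library, and the same held for Eif3g, Eif3i and Eif3j1, whose log2 fold changes were all 0.13. Of the 13 subunit genes 7 lay apart with anti–VEGF-B higher and 1 lower (53.8% and 7.69%), against 10.5% and 38.5% of all tested genes. Eif3b, a core subunit with an RNA recognition motif, was the one subunit with non-overlapping groups and lower values with anti–VEGF-B. It stood at 34.1, 36.7 and 31.4 FPKM against 39.1, 45.7 and 37.6 FPKM (log2 fold change -0.25, SE 0.10, limma adjusted p = 0.0762). Eif3a and Eif3c, which encode further core subunits, had log2 fold changes of 0.05 and -0.01 with overlapping groups.

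Because the subunits work as 1 complex, the share of each in the summed eIF3 FPKM of its library was also compared, which does not change when a library is multiplied by a constant. The shares of Eif3f, Eif3m, Eif3k and Eif3e were higher with anti–VEGF-B in all 3 libraries, without overlap, those of Eif3c, Eif3d, Eif3l and Eif3b were lower, and the other 5 overlapped. Eif3m made up 8.10%, 8.05% and 7.46% of the eIF3 transcripts with anti–VEGF-B and 6.72%, 6.57% and 7.04% with IgG. Eif3b made up 1.66%, 1.84% and 1.61% against 2.00%, 2.56% and 2.06%. The highest share, that of Eif3h, was 24.4% to 26.1% against 23.7% to 25.7%, with overlap. The shares of 1 library sum to a fixed total, so a rise of some subunits lowers the share of the others. How often such shares lie apart in other groups of genes was not counted.

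**Figure D3:**
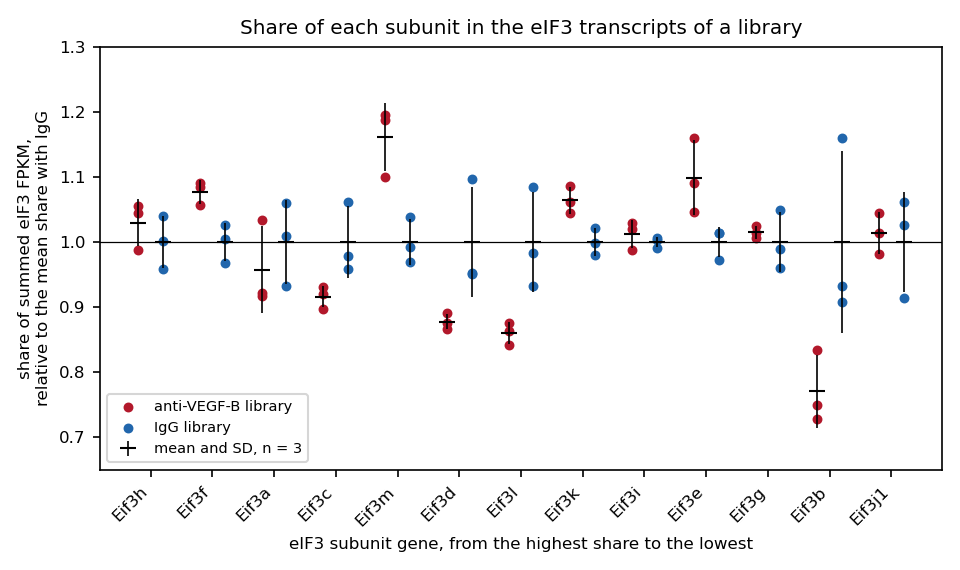
Share of each eIF3 subunit gene in the summed eIF3 FPKM of a library, divided by the mean share of the 3 IgG libraries (vertical axis, no unit), with subunits ordered by share; points are libraries, and black marks are the mean and SD of 3. The points of Eif3m, Eif3e, Eif3f and Eif3k lie above those of IgG, and those of Eif3b, Eif3c, Eif3d and Eif3l below.

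Eif5a encodes the factor that carries hypusine, a modified lysine, and helps ribosomes past difficult stretches. It stood at 174, 167 and 158 FPKM with anti–VEGF-B and at 195, 193 and 179 FPKM with IgG. The groups did not overlap, and the change missed the threshold (log2 fold change -0.18, SE 0.07, limma adjusted p = 0.0854). Its direction and call depended on the scaling: the log2 fold change was -0.26 after quantile normalization (limma adjusted p = 0.0358), -0.25 after cyclic loess (0.0286) and 0.02 after median centring (0.901).

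The elongation factors held the highest levels among the 56 genes. Eef1a1, which brings each tRNA to the ribosome, stood at 3730, 3327 and 3657 FPKM with anti–VEGF-B and at 3575, 3022 and 3415 FPKM with IgG. The groups overlapped (log2 fold change 0.10, 95% interval -0.12 to 0.32, limma adjusted p = 0.460). Eef2, which moves the ribosome along by 1 codon, stood at 3318, 3038 and 3239 FPKM against 2995, 2670 and 2903 FPKM. Every anti–VEGF-B library was above every IgG library, and the change did not pass (log2 fold change 0.16, SE 0.09, limma adjusted p = 0.184); after quantile normalization the log2 fold change was 0.15 with a limma adjusted p of 0.0235, and after cyclic loess it was 0.00. Eef1a1 and Eef2 together made up 54.7% to 55.8% of the summed FPKM of the 56 genes with anti–VEGF-B and 53.7% to 55.6% with IgG. The genes of the exchange factor that recharges eEF1A, Eef1b2, Eef1d and Eef1g, had log2 fold changes of 0.17, 0.04 and 0.16, all with overlapping groups.

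Eef1e1 encodes a protein of the multi-synthetase complex, which gathers tRNA synthetases, and is not part of the elongation cycle itself. It stood at 3.33, 2.37 and 2.53 FPKM with anti–VEGF-B and at 3.99, 4.80 and 4.14 FPKM with IgG. Its mean FPKM fell by 36.4%, with no overlap, and the log2 fold change of FPKM + 1 was -0.51 (SE 0.12, limma adjusted p = 0.0183). The call was lost under all 3 scalings and without anti–VEGF-B 2, anti–VEGF-B 3 or IgG 2.

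Eef2k was the factor with the largest rise in the fit without further scaling. It encodes the kinase that phosphorylates eEF2 and so slows elongation. Eef2k stood at 6.36, 6.80 and 6.47 FPKM with anti–VEGF-B and at 4.41, 4.43 and 4.49 FPKM with IgG. The libraries of each group lay close together and far from the other group, and the level rose by 47.2% (log2 fold change 0.47, SE 0.09, limma adjusted p = 0.00876). It passed in all 14 alternative fits, with log2 fold changes from 0.45 to 0.67 and adjusted p from 0.00483 to 0.0463, which held for no other factor of the 15. An exact two-sided permutation test of its 6 values gives p = 0.1, the smallest possible with 3 against 3. With a pseudocount of 1 and no further scaling, the log2 fold change of Eef2k stayed under the stricter limit of an absolute 0.5. It was 0.55 with a pseudocount of 0.1 and 0.67 under each of the 3 scalings.

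The methyltransferases of eEF1A and eEF2 were at low levels. Eef1akmt2 stood at 3.30, 2.89 and 3.08 FPKM with anti–VEGF-B and at 4.60, 4.43 and 3.85 FPKM with IgG and fell (log2 fold change -0.37, SE 0.10, limma adjusted p = 0.0278), with no overlap but with the call lost under all 3 scalings and without any one of 5 of the 6 libraries. Eef1akmt1 stood at 1.66, 2.52 and 2.00 FPKM against 3.28, 2.96 and 2.49 FPKM, with anti–VEGF-B 2 just above IgG 3 (log2 fold change -0.36, limma adjusted p = 0.0706). Eef2kmt and Eef1akmt4 had log2 fold changes of 0.18 and 0.16 with overlapping groups.

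**Figure D4:**
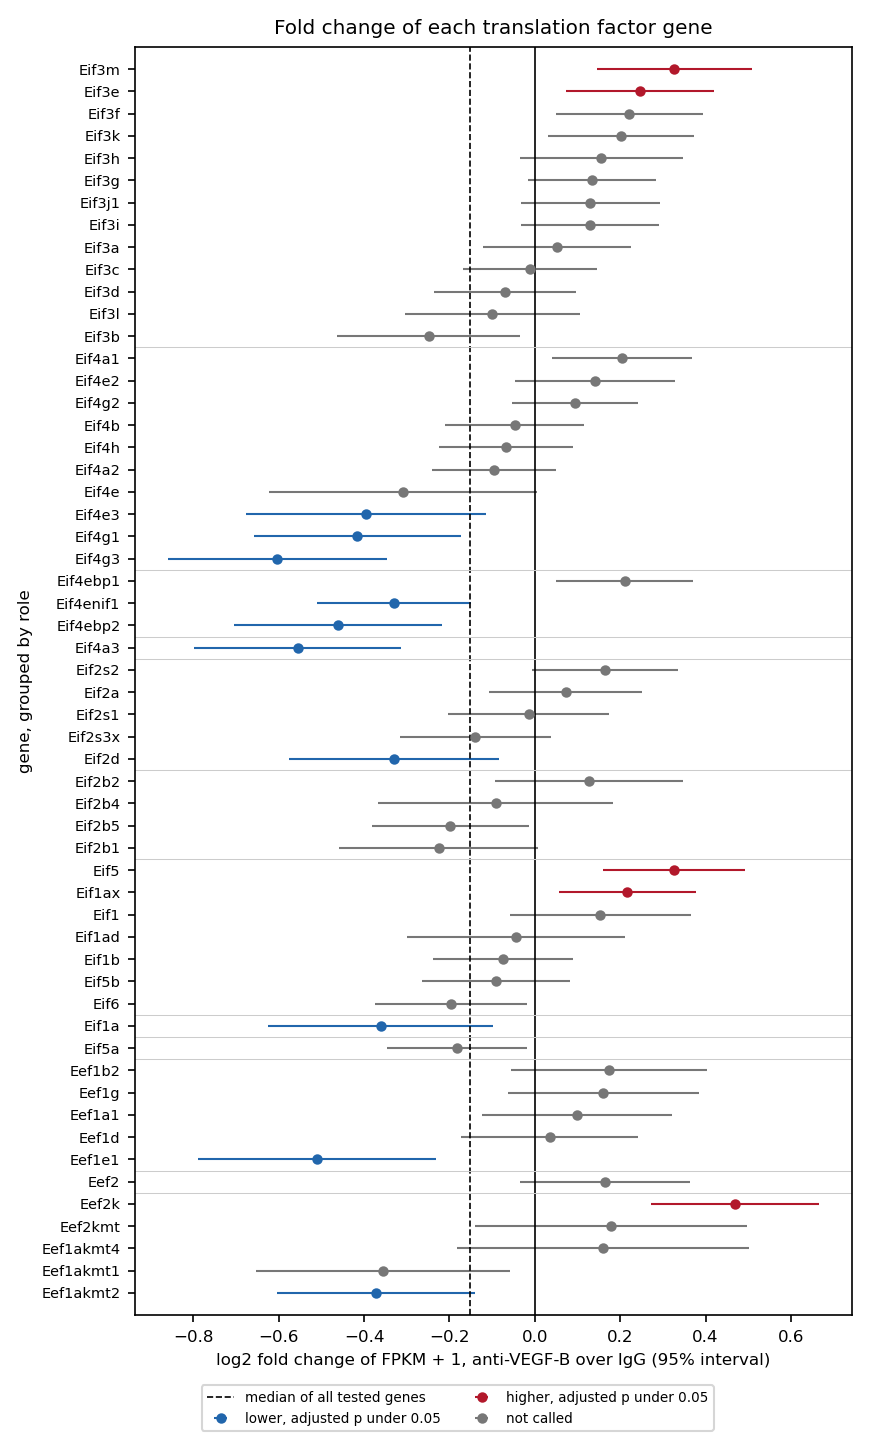
Log2 fold change of FPKM + 1, anti–VEGF-B over IgG (horizontal axis), for each of the 56 genes (vertical axis, grouped by role), with 95% intervals from limma over 3 libraries per group; red genes rose, blue genes fell and grey genes did not pass at an adjusted p under 0.05. The dashed line is the median of all tested genes, -0.15, and no eIF3 subunit passed as lower.

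The direction of the changes varied with the level of the genes. All 10 factors that fell had means under 50 FPKM. They were 40% of the factors of 1 to 10 FPKM and 30% of those of 10 to 50 FPKM. Among all tested genes of these 2 classes 27.2% and 20.3% fell. Of the 26 factors above 50 FPKM 3 rose (11.5%) and none fell in limma, against 16.1% and 9.83% of all genes above 50 FPKM. At an unadjusted p under 0.05, 7 of the 26 were higher and 1 lower, and the share of all genes above 50 FPKM at that threshold was not computed. The median log2 fold change was -0.21 for the 10 factors of 1 to 10 FPKM, -0.20 for the 20 of 10 to 50 FPKM and 0.14 for the 26 above 50 FPKM. All tested genes showed a gradient too, with medians of -0.21, -0.09 and 0.07, and 71 of 722 genes above 50 FPKM fell and 116 rose. Across genes, which are not independent replicates, Spearman's rho between the mean level and the log2 fold change was 0.48 for the 56 factors and 0.28 for all 8816 genes. Both measures come from the same 6 libraries. After cyclic loess, which removes a trend with level, the medians of the 3 classes of factors were -0.01, -0.08 and 0.05. Limits of 10 and 50 FPKM were chosen after the values were seen.

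**Figure D5:**
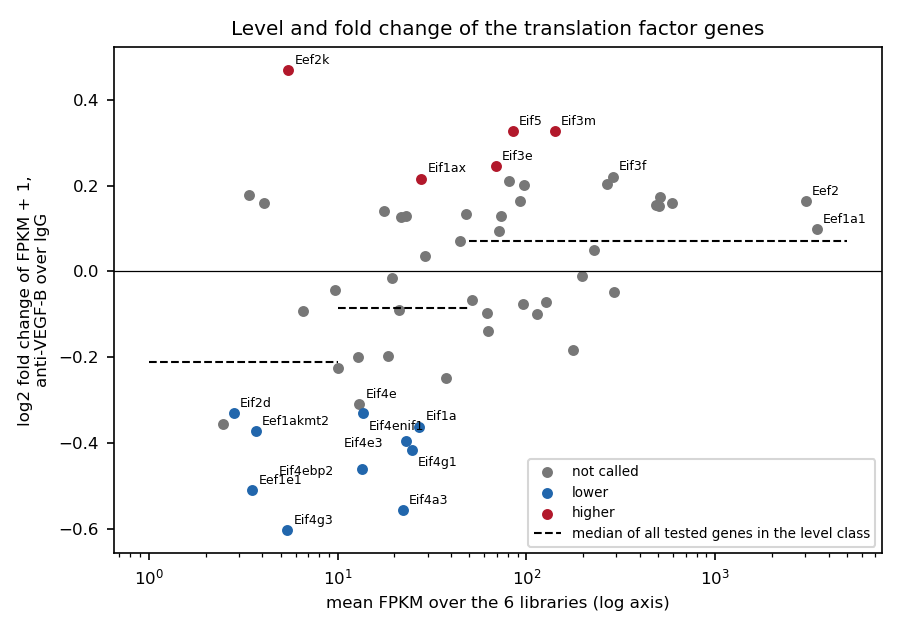
Mean FPKM over the 6 libraries (horizontal log axis) against log2 fold change of FPKM + 1 (vertical axis) for the 56 genes, coloured by call; dashed lines are the medians of all tested genes of 1 to 10, 10 to 50 and over 50 FPKM. The blue genes lie to the left of 50 FPKM, and Eef2k, at a low level, lies above all the others.

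The limit of 1 FPKM left out 4 genes. Those just inside it were Eef1akmt1, Eif2d and Eef2kmt, at means of 2.49, 2.82 and 3.40 FPKM. Those just outside were Eif4ebp3, Eif2b3 and Eif3j2, at 0.869, 0.752 and 0.499 FPKM, followed by Eif5a2 at 0.486 FPKM. Eif3j2, a near copy of Eif3j1, was listed at 2.99 FPKM in anti–VEGF-B 2 and at 0 in the other 5 libraries, and how reads were divided between these copies is not stated. Eif5a2, the second gene of eIF5A, stood at 0.277, 0.349 and 0.496 FPKM with anti–VEGF-B and at 0.544, 0.663 and 0.586 FPKM with IgG. In the fit without a filter none of these 4 genes passed in limma, and Eif5a2 alone had an unadjusted p under 0.05 (limma adjusted p = 0.0875).

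The genes of the 56 factors lie on many chromosomes, and those with the firmest calls lie apart from each other. In the table's GRCm38 coordinates Eef2k spans chromosome 7 from 120842831 to 120907450, Eif4g3 chromosome 4 from 137993022 to 138208508, and Eif4a3 chromosome 11 from 119288363 to 119300089. Eif4ebp2 spans chromosome 10 from 61428491 to 61452661, Eif5 chromosome 12 from 111538016 to 111546752, and Eif3m chromosome 2 from 104999656 to 105017080. The loci of 11 factors overlap another listed gene, 10 of them on the opposite strand, and whether strand was used in the authors' counting is not stated.

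Other genes of protein synthesis were read from a list of 60, of which 52 were tested: 13 fell, 1 rose and the median log2 fold change was -0.17. The share that fell was 25% and the share that rose 1.92%, near the 23.8% of all tested genes for the first and under the 4.87% for the second. Quantile normalization gave 7 lower and 3 higher (10.4% and 9.98% of all genes), cyclic loess the same counts (10.6% and 9.66%), and median centring 7 and 5 (9.15% and 15.5%). Without anti–VEGF-B 3, 6 fell and none rose in limma, against 7.88% and 1.86% of all genes. At an unadjusted p under 0.05 the counts in that fit were 14 and 2. The share of all genes at this unadjusted threshold was not computed for that fit, so these counts stand without a background. Among initiation proteins Ddx3x, a helicase that works with eIF4F, stood at 63.3, 65.1 and 53.0 FPKM with anti–VEGF-B and at 97.2, 102 and 96.0 FPKM with IgG (log2 fold change -0.70, limma adjusted p = 0.00469). Pdcd4, which binds eIF4A and blocks it, stood at 21.4, 21.2 and 19.5 FPKM against 30.9, 39.7 and 30.6 FPKM (log2 fold change -0.67, limma adjusted p = 0.00638). In both the groups lay well apart. Abcf1, an ATP-binding protein that associates with eIF2, had a log2 fold change of -0.69 (limma adjusted p = 0.0147).

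In termination and recycling 3 of 5 tested genes fell (60%, against 23.8% of all tested genes), and the other 2 had log2 fold changes of -0.02 and 0.04. This was the highest share of any class of the list. The other classes ran from 0% lower (Mnk kinases, and poly(A)-binding proteins and their partners) to 37.5% (other initiation proteins). Etf1, the release factor that reads stop codons, had a log2 fold change of -0.42 (limma adjusted p = 0.0102), and Gspt1, its GTPase partner, one of -0.56 (0.0129). Abce1, which splits ribosomes after termination, stood at 8.65, 7.99 and 7.56 FPKM with anti–VEGF-B and at 12.0, 12.2 and 11.5 FPKM with IgG (log2 fold change -0.51, limma adjusted p = 0.00713). Mtor, the kinase upstream of the eIF4E-binding proteins and of eEF2 kinase, stood at 1.36, 1.39 and 1.14 FPKM against 1.98, 2.42 and 2.19 FPKM and fell (log2 fold change -0.47, limma adjusted p = 0.0136). Tsfm, a mitochondrial elongation factor, and Dph2, an enzyme of the modification that eEF2 carries, had log2 fold changes of -0.49 and -0.67 (limma adjusted p = 0.0152 and 0.0160). The 1 gene that rose was Atf4, the transcription factor made when eIF2 alpha is phosphorylated, at 756, 763 and 770 FPKM against 628, 526 and 590 FPKM (log2 fold change 0.40, limma adjusted p = 0.0127).

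Set beside the translation factors, the 80 tested genes of the cytosolic ribosomal proteins had a median log2 fold change of 0.07, with 2 lower and none higher in limma (3 each way at an unadjusted p under 0.05). The 18 tested aminoacyl-tRNA synthetase genes had a median of -0.30, with 8 lower and none higher in limma (10 and 0 at an unadjusted p under 0.05). Of the ribosomal protein genes 2.5% fell and of the synthetase genes 44.4%, against 23.8% of all tested genes, of which 4.87% rose. At an unadjusted p under 0.05 the shares of all tested genes were 35.2% lower and 7.96% higher. The median of the 56 factors, -0.01, lay between the medians of the ribosomal protein and synthetase genes, and no difference between the groups of genes was tested.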

How the data were processed

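RNA-Seq values of 3 anti–VEGF-B and 3 IgG libraries were matched to the 6 value columns through the labels, and there were 0 columns of other samples. The authors deposited a single table of protein-coding genes, from stranded libraries processed with hisat2, StringTie and Ballgown on GRCm38, and state no normalization between libraries. The deposited values were treated as FPKM, a unit inferred from these tools and from the fractional values. The table's name calls it raw data, and no count model was used. Whole reads could not be recovered: among genes under 0.3 FPKM at most 2.62% shared a ratio between 2 libraries, so depth and counting error are unknown.

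Genes averaging 1 FPKM or more entered a limma 3.58.1 fit in R 4.3.3 on log2(FPKM + 1) (empirical Bayes with trend, two-sided, no covariate), with Benjamini-Hochberg adjustment over all 8816 genes. The method was tested on simulated data. Alternatives were quantile normalization, median centring, cyclic loess, no filter, a minimum mean of 5 FPKM, a pseudocount of 0.1, no moderation, a rule of unadjusted p under 0.05 and a log2 change beyond 0.5 either way, the replicate number as a block, and each library left out.

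Members and lists were chosen with earlier results of these data known. Values per library were given for members with an adjusted p under 0.05 and for a fixed set (Eif4e, Eif4ebp1, Eif4ebp2, Eif4a1, Eif4g1, Eif2s1, Eif2s3x, Eif5a, Eif6, Eef1a1, Eef2, Eef2k); Eif2s3y was not analysed here. Other translation genes were named up to the 10 with the lowest p. Values per library of further members were added after they were seen: Eif4g2, Eif4e2, Eif4a2, Eif2s2, Eif2b5, Eif3f, Eif3k, Eif3b and Eef1akmt1.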

Additional observations from a re-analysis of the deposited data

How the results depend on the processing

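The count of factors that fell, 10, became 5 under quantile normalization as well as cyclic loess and 2 after median centring. At a mean of at least 5 FPKM it was 6, among the 50 of the 56 factors that met this limit. It was 3 under the rule of unadjusted p and a log2 change beyond 0.5, and from 2 to 8 when 1 library was left out. With no moderation of the variance limma called 0, with 12 at an unadjusted p under 0.05. The count that rose, 5, was 16 after median centring, 0 under that rule, 1 (Eef2k) with no moderation, with 12 at an unadjusted p under 0.05, and from 2 to 6 when 1 library was left out. Of the other translation genes, 13 fell and 1 rose. Quantile normalization and cyclic loess gave 7 and 3, median centring 7 and 5, and that rule 7 and 0. A mean of at least 5 FPKM gave 6 lower, a limit that took genes that fell, such as Mtor, Tsfm and Dph2, out of the test. No moderation gave 0 and 0 in limma (18 and 1 at an unadjusted p under 0.05). With 1 library left out the counts ran from 6 to 13 and from 0 to 1. The median log2 fold change of the factors was 0.19 after median centring. The direction turned for Eif2s1 after quantile normalization (0.088), median centring (0.19) and cyclic loess (0.070), and ran from -0.052 to 0.042 when 1 library was left out. It also turned after median centring for Eif2s3x (0.061), Eif5a (0.017) and Eif6 (0.0047), and after cyclic loess for Eef1a1 (-0.064). The causes of these shifts were not tested. Deviations from the group mean had correlations across genes of -0.03, 0.11 and 0.09 between libraries with the same number. Between libraries with different numbers they ran from -0.17 to 0.10. With 3 libraries per group these values cannot decide whether libraries were paired. With the replicate number as a block 11 factors fell and 7 rose. In that fit 14 of the other translation genes fell and 1 rose, and the median log2 fold change of the factors was -0.01. Unknown depth leaves the spread between 3 libraries as the only error.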
